A study of Mus musculus with 18 samples.

Results

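The genes described here are 10 genes of calcium and potassium handling in smooth muscle: Atp2a2, Atp2a3, Pln, Atp2b1, Atp2b4, Ryr2, Itpr1, Cacna1c, Kcnma1 and Kcnmb1. They were taken by symbol from a table of 35655 genes. All 10 passed the filter on low counts and were among the 10312 genes tested. Expression was measured by nanoMACE-sequencing, which counts the 3′ ends of transcripts, in laser-dissected carotid artery of mice. Of the 18 libraries, 4 were pre-injury (day 0), and after wire injury 4 were of day 7, 3 of day 14, 4 of day 21 and 3 of day 28. The study asked how the vessel wall changed with time after injury compared with its basal state. All groups were WT C57/BL6 mice, and per the study's methods the animals were adult males and received the injury on the left carotid artery only. The right artery served as control, vessels with thrombosis were excluded, and the sources do not say from which side the day 0 tissue was taken. Per the study's methods, RNA came from many tissue sections cut to contain the outer elastic lamina and the neointima. What was cut on day 0, before the injury that leads to a neointima, is not stated. The part of the vessel sampled may therefore differ between day 0 and later days. Each value is that of a mixture of cells.

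Contraction of arterial smooth muscle is driven by a rise of calcium in the cytosol. Calcium enters through voltage-gated channels, is released from the sarcoplasmic reticulum through ryanodine and inositol trisphosphate receptors, and is removed by pumps of the reticulum and of the plasma membrane. Large-conductance calcium-activated potassium (BK) channels open when calcium rises and hyperpolarise the cell, which opposes further entry.

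Libraries contained 440675 to 878310 counts. Levels are given as CPM, the counts scaled to a common library size after TMM. They are not corrected for transcript length and are compared between days for each gene, not between genes. The labelled tissue was checked against 12 structural genes of smooth muscle (among them Acta2, Myh11 and Tagln), all of which were detected on each day. Their summed level was 47733 to 54744 CPM on day 0, 2731 to 11017 on day 7, 11289 to 33715 on day 14, 12739 to 30424 on day 21 and 33690 to 41082 on day 28. The summed level of 12 macrophage markers was 111 to 521 CPM on day 0, 4188 to 6124 on day 7, 1053 to 2244 on day 14, 1605 to 3140 on day 21 and 743 to 1051 on day 28. Summed skeletal muscle markers reached 591 CPM in replicate 2 of day 14 and 454 CPM in replicate 1 of day 21, against 0 to 142 CPM in the other libraries. Summed platelet markers were 55.1 to 109 CPM on day 0 and 213 to 386 CPM on day 7. On these days the mean of Pf4 was 9.97 and 222 CPM, and that of Gp1bb was 72.8 and 43.8 CPM. Ppbp (0 and 13.2 CPM) and Itga2b (1.20 and 8.62 CPM) were low, and 4 of the 8 markers had no count on day 7. Summed fibroblast markers were 5304 to 9666 CPM on day 0, 9868 to 14543 on day 7, 18557 to 30500.1 on day 14, 22755 to 45330.3 on day 21 and 7240.0 to 9408 on day 28. This sum does not stand for each marker. Of the 9, 3 were higher and 2 lower on day 7 than on day 0 (edgeR, adjusted p under 0.05), against 11.3% and 8.55% of all genes tested. The log2 fold change was negative for 5 and positive for 4, with a median of -0.52. On day 21, 3 were higher and 1 was lower, against 5.71% and 2.92%. The part of these cells in the differences between days was not tested. In bulk tissue, fewer smooth muscle cells and less RNA per cell cannot be told apart.

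Most of the genes fell on day 7. In the test against day 0, 7 of 10 genes were lower and 0 were higher (edgeR quasi-likelihood test, adjusted p under 0.05), while 8.55% of all genes tested were lower and 11.3% were higher. The genes that fell were Atp2a2, Pln, Atp2b4, Ryr2, Itpr1, Cacna1c and Kcnmb1. Some of these calls depended on single libraries. Without replicate 1 of day 0 or replicate 1 of day 7, the calls of Ryr2 and Itpr1 were both lost. Without replicate 2 of day 7, those of Ryr2 and Cacna1c were lost. For 7 genes (Atp2a2, Pln, Atp2b4, Ryr2, Cacna1c, Kcnma1 and Kcnmb1), every day 7 library lay below every day 0 library. This was the case for 9.71% of all genes tested. Kcnma1 was among them without a call, whereas Itpr1 was called and overlapped with day 0. The median log2 fold change was -1.98 over the 10 genes, or -1.87 with Pln at its bound, 0.07 over all genes tested and -3.26 over the 12 structural genes.

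**Figure D1:**
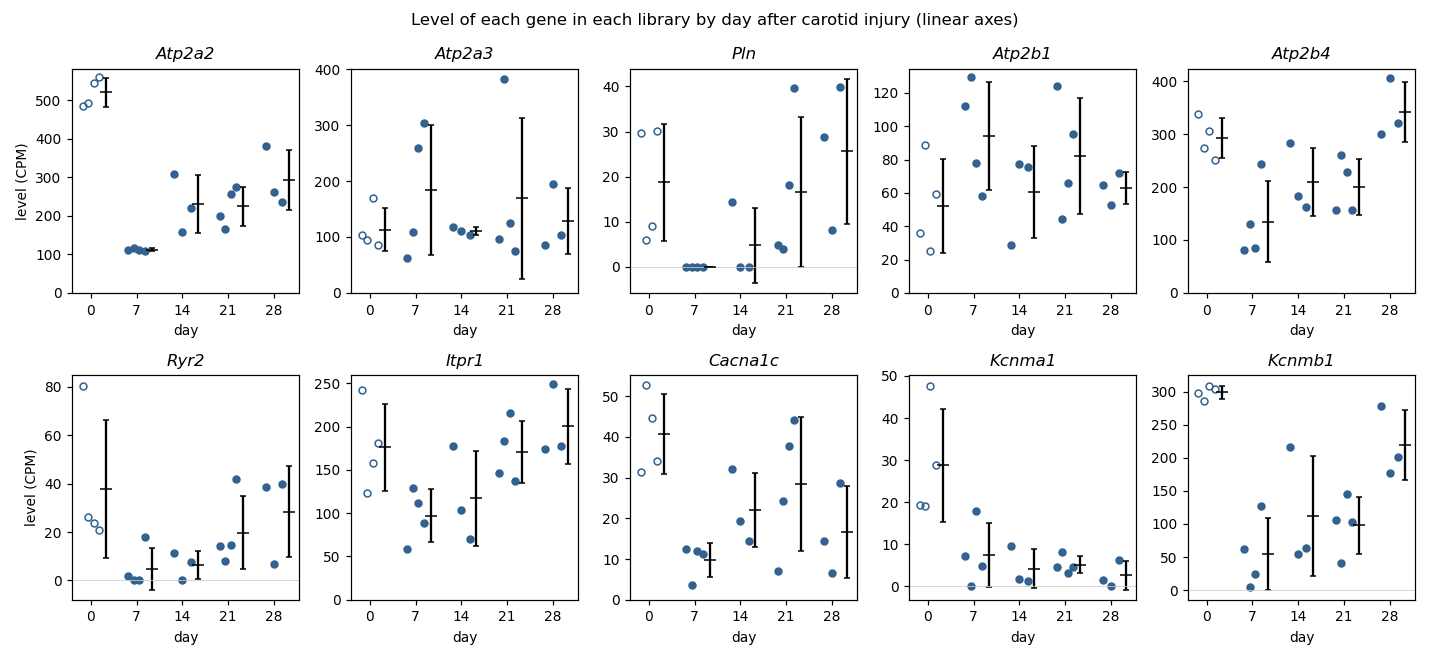
Level of each of the 10 genes in CPM (linear vertical axes) by day after injury. Points are libraries (open on day 0, filled after injury), and bars to their right are the mean and SD. The 4 day 7 libraries of Atp2a2 lie between 108 and 117 CPM, below the day 0 libraries at 485 to 560.3 CPM.

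Atp2a2 encodes SERCA2, the main calcium pump of the sarcoplasmic reticulum in arterial smooth muscle. Its level was 485, 493, 546 and 560.3 CPM in the 4 libraries of day 0 and 110, 117, 112 and 108 CPM on day 7. It was 309, 159 and 222 CPM on day 14, 199.9, 165, 258 and 275 CPM on day 21, and 382, 263 and 236 CPM on day 28. Every library after injury was below every day 0 library, and the day 7 libraries were the lowest and the most alike. The log2 fold change on day 7 was -2.22 ± 0.24 (SE), a 4.66-fold lower level (edgeR, adjusted p = 2.76e-07). On day 14 it was -1.18 ± 0.26 (edgeR, adjusted p = 0.0046) and on day 21 it was -1.22 ± 0.23 (edgeR, adjusted p = 0.00134). The day 14 difference did not pass the test without replicate 2 of day 14, the library with the highest skeletal muscle markers (log2 fold change -0.99, adjusted p = 0.0613). On day 28 the log2 fold change was -0.82 (95% interval -1.34 to -0.31), which did not pass the test (edgeR, adjusted p = 0.105) but did so without replicate 1 of day 28 (-1.05, adjusted p = 0.0299). Compared directly with day 7, Atp2a2 rose by 1.04 ± 0.25 (log2 scale, SE) until day 14, by 1.00 ± 0.24 until day 21 and by 1.39 ± 0.25 until day 28 (edgeR, adjusted p = 0.03, 0.00805 and 0.000476). The rise on day 14 was lost when any of 5 libraries was left out (replicates 1, 2 and 3 of day 7 and replicates 1 and 3 of day 14), with adjusted p of 0.0645 to 0.363. The gene lies on the reverse strand of chromosome 5 (chr5:122591575-122640903, GRCm39), and 3206 of its exonic bases are shared with Gm43361 on the opposite strand. Whether the counting used strand is not given in the sources used here, and reads from such an overlap cannot be assigned to either strand.

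Atp2a3 encodes SERCA3, a reticulum pump known from endothelial and blood cells. Its level was 103, 94.4, 169.9 and 85.3 CPM on day 0 and 62.3, 109.6, 259 and 304 CPM on day 7. It was 118, 111 and 104 CPM on day 14, 95.8, 383, 125 and 74.5 CPM on day 21, and 86.2, 195 and 104 CPM on day 28. The groups overlapped on every day, and 3 libraries stood out as high, replicates 3 and 4 of day 7 and replicate 2 of day 21. In these 3 libraries the summed level of 12 endothelial markers was also the highest, at 2869, 2661 and 2048 CPM, against 938 to 1473 CPM in the other 15. The part of endothelium in the level of Atp2a3 was not tested. Against day 0 the log2 fold change was 0.70 on day 7 (95% interval -0.33 to 1.73; edgeR, adjusted p = 0.383), and the intervals of the later days also included 0.

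Pln encodes phospholamban, a small membrane protein that inhibits SERCA2. Its level was 29.8, 5.98, 8.94 and 30.2 CPM on day 0, which rests on 5 to 23 counts per library. No count was found in any of the 4 day 7 libraries. The level was 14.4, 0 and 0 CPM on day 14, 4.73, 4.04, 18.1 and 39.6 CPM on day 21, and 28.7, 8.27 and 39.9 CPM on day 28. The groups overlapped from day 14 on. With day 7 set at a floor of 3 counts per library, Pln was at least 3.47-fold lower on day 7 than on day 0 (edgeR, adjusted p = 0.00517). Against the same floor its level exceeded that of day 7 at least 3.08-fold on day 21 and at least 4.76-fold by day 28 (edgeR, adjusted p = 0.0175 and 0.00567). The rise on day 21 did not pass the test without replicate 4 of day 21 (adjusted p = 0.0677). The gene spans chr10:53199622-53223512 (GRCm39, forward strand), and 2688 of its exonic bases are shared with Gm47644 on the opposite strand.

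Atp2b1 and Atp2b4 encode PMCA1 and PMCA4, pumps that extrude calcium across the plasma membrane. The level of Atp2b4 was 338, 274, 306 and 252 CPM on day 0 and 80.1, 129, 85.7 and 244 CPM on day 7. It was 283, 184 and 163 CPM on day 14, 157, 260.3, 229 and 156 CPM on day 21, and 300.2, 407 and 321 CPM on day 28. All day 7 libraries were below day 0, although replicate 4 was close to it, and the libraries of the later days overlapped with day 0. Atp2b4 fell by 1.11 ± 0.29 (SE) on the log2 scale on day 7 (edgeR, adjusted p = 0.00718). It was higher on day 28 than on day 7 (log2 fold change 1.34 ± 0.31; edgeR, adjusted p = 0.00446). The normalised table that the authors deposited divides Atp2b4 by a further factor per library, from 0.427 to 5.59, and with those values the log2 fold change on day 7 was 0.55 (limma, adjusted p = 0.564).

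The level of Atp2b1 was 35.7, 88.5, 25.3 and 59.1 CPM on day 0, 112, 129, 77.7 and 58.1 CPM on day 7, and 28.8 to 124 CPM thereafter. The groups overlapped on every day. The log2 fold change on day 7 was 0.84 (95% interval 0.03 to 1.65), which did not pass the test (edgeR, adjusted p = 0.149). Without replicate 2 of day 0, the highest of that day, it was 1.22 (edgeR, adjusted p = 0.0469). Atp2b1 and Atp2a3 were the 2 genes of the 10 with a positive log2 fold change on day 7.

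**Figure D2:**
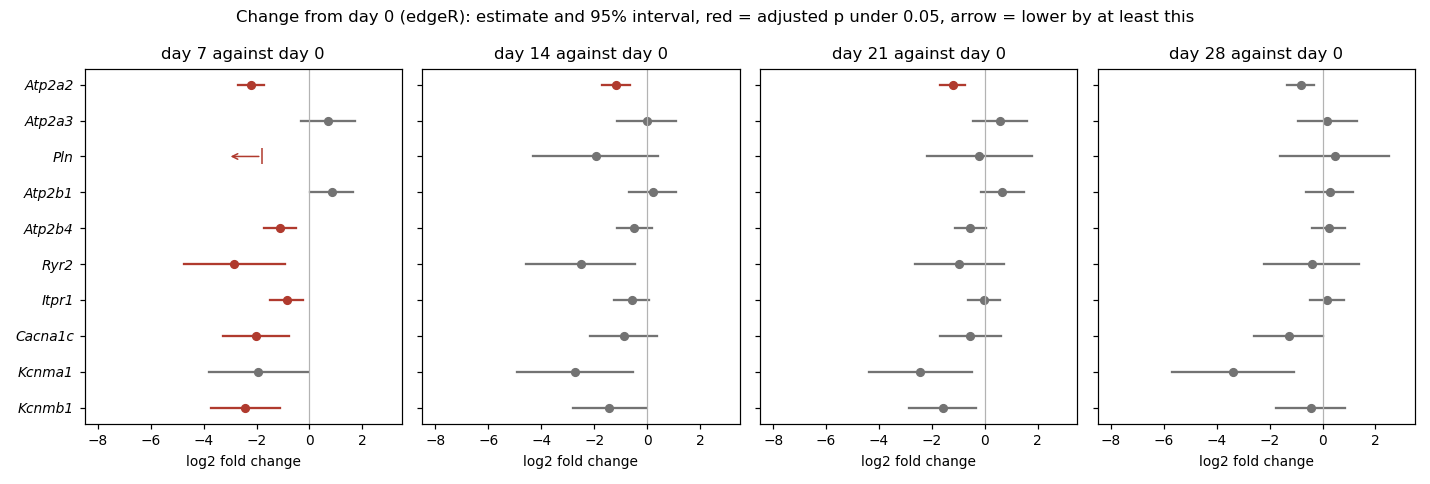
Log2 fold change of each gene against day 0 on days 7, 14, 21 and 28 (points, edgeR) with its 95% interval (lines). Red marks an adjusted p under 0.05, and the arrow marks Pln, whose day 7 libraries held no count and which was at least 3.47-fold lower. On day 7, 7 genes are red, on days 14 and 21 Atp2a2 alone is red, and on day 28 none is red.

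Ryr2 encodes the ryanodine receptor of heart and arterial smooth muscle, which releases calcium from the reticulum. Its level was 80.4, 26.3, 23.8 and 21.0 CPM on day 0 and 1.78, 0, 0 and 17.8 CPM on day 7. It was 11.2, 0 and 7.83 CPM on day 14, 14.2, 8.07, 14.8 and 41.9 CPM on day 21, and 38.8, 6.62 and 39.9 CPM on day 28. Replicate 1 of day 0 and replicate 4 of day 7 were each far above the rest of their day. All libraries of days 7 and 14 were below day 0, and the later days overlapped with it. The log2 fold change on day 7 was -2.84 ± 0.93 (SE; edgeR, adjusted p = 0.0304). It was -2.17 without replicate 1 of day 0 (adjusted p = 0.132). Without replicate 4 of day 7 the other 3 libraries held 1 count in all, so that no fold is given, and the adjusted p was 0.00149. The call was also lost without replicate 1, 2 or 3 of day 7, and over these 4 losses the adjusted p was 0.0813 to 0.132. On day 14 the log2 fold change was -2.51 (95% interval -4.56 to -0.46; edgeR, adjusted p = 0.164), and -1.84 without replicate 1 of day 0 (adjusted p = 0.402). The difference between day 28 and day 7 was 2.43 on the log2 scale (95% interval 0.44 to 4.43; edgeR, adjusted p = 0.0968), and the adjusted p was 0.00584 without replicate 4 of day 7, where again no fold is given. With the replicate number as a block, a number with no stated pairing, the difference was 3.27 (adjusted p = 0.0362).

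Itpr1 encodes the inositol trisphosphate receptor that releases reticulum calcium downstream of contractile agonists. Its level was 243, 123, 158 and 181 CPM on day 0 and 58.8, 129, 112 and 88.8 CPM on day 7. It was 178, 104 and 70.5 CPM on day 14, 147, 184, 215 and 137 CPM on day 21, and 174, 249.7 and 177 CPM on day 28. The day 7 values overlapped with day 0 in 1 library each, and the day 21 and day 28 libraries lay within or slightly above the range of day 0. Itpr1 fell by 0.86 ± 0.30 on the log2 scale on day 7, the smallest of the 7 changes that passed the test (edgeR, adjusted p = 0.0425). The call did not hold with the replicate number as a block (adjusted p = 0.0653) or when any of 5 libraries was left out, namely replicates 1, 3 and 4 of day 0 and replicates 1 and 4 of day 7 (adjusted p of 0.0534 to 0.15). With the deposited normalised values it was -0.46 (limma, adjusted p = 0.431). From day 7 to day 28 the level rose by 1.04 ± 0.32 (edgeR, adjusted p = 0.0275). That rise was lost with the replicate block (adjusted p = 0.0595) and without replicate 1 of day 7 or replicate 2 of day 28 (adjusted p = 0.0819 and 0.129). On day 21 the log2 fold change against day 0 was -0.04 (95% interval -0.64 to 0.56), and on day 28 it was 0.19 (95% interval -0.46 to 0.83).

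Cacna1c encodes the pore of the L-type calcium channel, the main voltage-gated calcium entry of arterial smooth muscle. Its level was 31.3, 52.6, 44.7 and 34.1 CPM on day 0 and 12.5, 3.59, 11.96 and 11.3 CPM on day 7. It was 32.0, 19.4 and 14.4 CPM on day 14, 7.10, 24.2, 37.8 and 44.2 CPM on day 21, and 14.4, 6.62 and 28.8 CPM on day 28. The libraries of days 7 and 28 were all below day 0, whereas those of days 14 and 21 overlapped with it. On day 7 its log2 fold change was -2.03 ± 0.61 (SE; edgeR, adjusted p = 0.0171), and the adjusted p was 0.0604 without replicate 2 of day 7. On day 28 it was -1.29 (95% interval -2.58 to 0.01; edgeR, adjusted p = 0.343). The further factors of the deposited normalised table for Cacna1c were 0.26 to 1.13, and with those values the day 7 change was -1.41 (limma, adjusted p = 0.0672).

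Kcnma1 encodes the pore-forming subunit of the BK channel, and Kcnmb1 encodes the beta subunit that raises its calcium sensitivity in smooth muscle. The level of Kcnmb1 was 298, 286, 309 and 304 CPM on day 0 and 62.3, 5.39, 23.9 and 128 CPM on day 7. It was 216, 54.7 and 63.9 CPM on day 14, 105, 40.4, 145 and 102 CPM on day 21, and 279, 177 and 201 CPM on day 28. The day 0 libraries were closely alike, all later libraries were below them, and the day 7 libraries were widely spread. Replicate 4 of day 7 and replicate 1 of day 14, the highest of their days, were also those with the highest summed level of the 12 structural genes, at 11017 and 33715 CPM. The log2 fold change on day 7 was -2.43 ± 0.62, a 5.38-fold lower level (SE; edgeR, adjusted p = 0.00989), and it was -3.28 without replicate 4 of day 7 (adjusted p = 0.00052).

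On day 14 the difference of Kcnmb1 was -1.42 (95% interval -2.79 to -0.06; edgeR, adjusted p = 0.265). It passed the test without the filter on low counts (adjusted p = 0.00125), with only the 2 days compared (0.0348) and with limma and the mouse number as a random block (0.0319), and it was -2.32 without replicate 1 of day 14 (0.059). Over all 28 alternative settings (edgeR, DESeq2 or limma) the adjusted p was 0.00125 to 0.724. On day 21 the difference was -1.60 (95% interval -2.85 to -0.35; edgeR, adjusted p = 0.11). This passed the test with the replicate block (adjusted p = 0.0258) and with DESeq2 (adjusted p = 0.0274). It also passed without replicate 2 or 4 of day 7 (adjusted p = 0.0241 and 0.0398), which enter this comparison only through the shared fit. Over all 29 alternative settings (edgeR, DESeq2 or limma) the adjusted p was 1.76e-05 to 0.234. On day 28 the difference was -0.45 (95% interval -1.76 to 0.86; edgeR, adjusted p = 0.792). Between day 7 and day 28 the level differed by 1.98 on the log2 scale (95% interval 0.62 to 3.34; edgeR, adjusted p = 0.0501). This difference passed the test with the replicate block (2.48, adjusted p = 0.00514), although replicate numbers carry no stated pairing. It also passed when replicate 2 or 4 of day 7, replicate 1 or 2 of day 14 or replicate 2 or 3 of day 21 was left out (1.64 to 2.83, adjusted p = 0.00366 to 0.0498). Over all 28 alternative settings (edgeR, DESeq2 or limma) the adjusted p was 3.91e-07 to 0.117.

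The gene whose pattern was most like that of Kcnmb1 was 1 of the structural genes, so the sequence before its RefSeq start is given, as the stretch where a CArG box, the site of serum response factor in many smooth muscle genes, could lie. The 250 bases are at chr11:33912763-33913012 (GRCm39, forward strand), inside the annotated spans of Kcnmb1 and of Kcnip1 and in no annotated exon.

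Kcnmb1: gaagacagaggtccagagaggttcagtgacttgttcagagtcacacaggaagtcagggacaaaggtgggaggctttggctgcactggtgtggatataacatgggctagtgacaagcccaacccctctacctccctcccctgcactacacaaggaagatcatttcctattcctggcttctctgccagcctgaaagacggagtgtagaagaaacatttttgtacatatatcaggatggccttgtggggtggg

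The CArG box, searched by name on both strands of the 300 bases around each RefSeq start, was found in 0 of the 11 promoters of the 8 members that the RefSeq table (GRCm38.p6) holds. It was found in 1.63% of all 32851 promoters, and in 1 of the 9 structural genes of smooth muscle with a promoter there (Myl9). TATAAA, also searched on both strands, was found in the promoter of Pln alone, 219 bases before its start, and in 13.6% of all promoters. The MEF2 motif, searched in the same way, was found in 0 of the promoters of the members and in 3.19% of all promoters. Among the 9 structural genes it was found in 1 (Synpo2). No match says only that these letters are not in this window. The motifs were chosen after the values were seen. Atp2a2 and Itpr1 are not in the table.

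The level of Kcnma1 was 19.4, 19.1, 47.7 and 28.9 CPM on day 0 and 7.12, 0, 17.9 and 4.84 CPM on day 7. It was 9.60, 1.76 and 1.30 CPM on day 14, 4.73, 8.07, 3.29 and 4.65 CPM on day 21, and 1.44, 0 and 6.39 CPM on day 28. Every library after injury was below every day 0 library on all 4 days. The values rest on few counts, 13 to 32 per library on day 0 and 0 to 9 thereafter. The log2 fold changes were -1.93 (95% interval -3.81 to -0.06), -2.72 (-4.91 to -0.54), -2.44 (-4.38 to -0.50) and -3.37 (-5.67 to -1.06) on days 7, 14, 21 and 28. None of the 4 passed the test (edgeR, adjusted p = 0.154, 0.153, 0.111 and 0.143), while DESeq2 gave an adjusted p of 0.0451 on day 28 and limma, with the mouse number as a random block, gave 0.0295 on day 7 and 0.0458 on day 21. With only the 2 days compared, the adjusted p on day 21 was 0.0309. Without replicate 1 of day 14 or replicate 3 of day 28, no library of that day held more than 1 count, and the test was not passed (adjusted p = 0.0856 and 0.12). The deposited normalised table divides Kcnma1 by further factors of 0.103 to 2.53, and with those values the log2 fold change was 0.36 on day 7 and 0.058 on day 21 (limma). For no other gene of the 10 did all 4 days lie below day 0 without a called difference on any of them.

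After day 7 few differences from day 0 passed the test. On day 14, 1 of 10 genes was lower (Atp2a2) and 0 were higher, against 1.36% and 4.7% of all genes tested. For 4 genes (Atp2a2, Ryr2, Kcnma1 and Kcnmb1) the day 14 libraries lay wholly below day 0, which was so for 6.79% of all genes. On day 21, 1 of 10 was again lower (Atp2a2) and 0 were higher, against 2.92% and 5.71%, and 3 genes (Atp2a2, Kcnma1 and Kcnmb1) lay wholly below day 0, against 6.81%. On day 28, 0 of 10 genes passed the edgeR test in either direction, against 0.359% lower and 0.815% higher among all genes. In that comparison 2 genes had an unadjusted p under 0.05 and the same 2, Atp2a2 and Kcnma1, were called by DESeq2. The shares of 0.359% and 0.815% are of adjusted edgeR calls and are no background for these 2 counts. On day 28, 4 genes (Atp2a2, Cacna1c, Kcnma1 and Kcnmb1) lay wholly below day 0, against 5.07% of all genes. The median log2 fold change of the 10 genes was -1.04 on day 14, -0.54 on day 21 and -0.11 on day 28, while that of all genes tested was 0.05, 0.07 and -0.01.

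In the direct comparison with day 7, 1 of 10 genes was higher on day 14 (Atp2a2; 1.26% of all genes tested), 2 were higher on day 21 (Atp2a2 and Pln; 3.83%) and 4 were higher on day 28 (Atp2a2, Pln, Atp2b4 and Itpr1; 6.38%). None was lower on these days in that comparison by the edgeR test, while 34, 333 and 819 of the 10312 genes tested were. In this test 0 of the 10 genes had a negative log2 fold change with an unadjusted p under 0.05, and DESeq2 called 0 lower. For these last 2 counts the share of all genes is not given. All comparisons with day 0 share the same 4 control libraries, and all comparisons with day 7 share the same 4 day 7 libraries, so that they are not independent of each other.

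A further comparison addressed whether the genes changed by more or by less than the structural genes of smooth muscle in the same tissue. The size of each library was set by the 12 structural genes in place of all genes, and a positive value then says that a gene fell less than these, or rose. On this scale 5 of 10 genes were higher on day 7 (edgeR, adjusted p under 0.05), but so were 94% of all genes tested, whose median log2 fold change was 3.78 against 1.66 for the 10 genes. The genes were Atp2a2 (1.54 ± 0.45), Atp2a3 (4.37 ± 0.65), Atp2b1 (4.66 ± 0.66), Atp2b4 (2.45 ± 0.47) and Itpr1 (3.02 ± 0.52), with adjusted p of 0.00161 or less. For Kcnmb1 the value was 0.71 (95% interval -0.28 to 1.70), for Cacna1c it was 1.48 (-0.15 to 3.11), for Kcnma1 it was 1.78 (-0.43 to 3.99) and for Ryr2 it was 0.10 (-1.95 to 2.15). None of these 4 passed the test (edgeR, adjusted p = 0.163, 0.0784, 0.117 and 0.924). With Myh11 alone as the reference, 8 of the 10 genes were higher, including Kcnmb1, Cacna1c and Kcnma1. Myh11 itself had a mean of 3681 CPM on day 0 and 179 CPM on day 7. The share of all genes higher with this reference is not given here, so the count cannot be read as a trait of the 10 genes. The value of Ryr2 was -0.16 with the summed counts of the structural genes as the reference. Pln had no count on day 7 and is given no fold on this scale, and its adjusted p was 0.06. Pln was lower with the replicate block (adjusted p = 0.0477), with the summed counts as the reference (0.0481) and without replicate 2 of day 0 (0.0481).

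**Figure D3:**
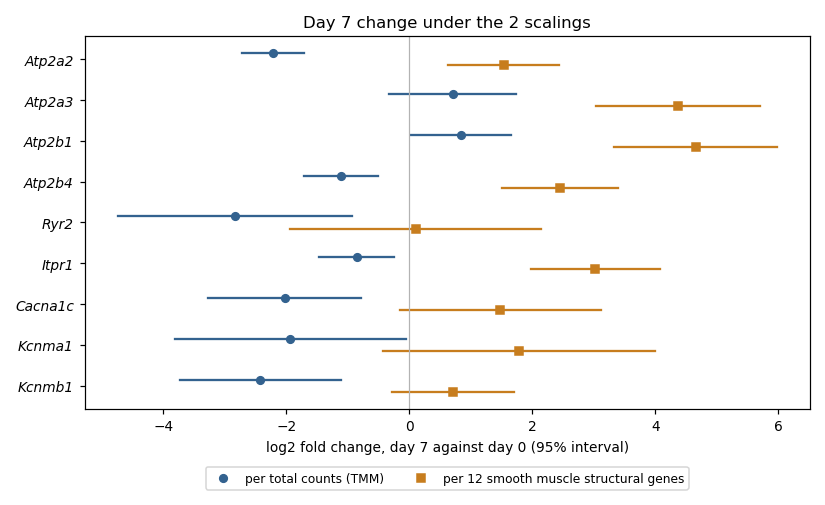
Log2 fold change on day 7 against day 0 for 9 genes, with 95% intervals, on the scale of total counts (blue circles) and relative to the 12 structural genes of smooth muscle (orange squares). Pln, with no count on day 7, is left out. Atp2a2 moves from -2.22 to 1.54, while the orange intervals of Ryr2, Cacna1c, Kcnma1 and Kcnmb1 include 0.

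On the same scale 3 of 10 genes were higher on day 14 (Atp2a3, Atp2b1 and Atp2b4), against 63.9% of all genes tested. On day 21, 4 of 10 were higher (these 3 and Itpr1), against 56.4%, and on day 28, 0 of 10 were higher, against 0.912%. At day 28 the edgeR fit relative to the structural genes gave 1 gene with an unadjusted p under 0.05 (Kcnma1, -2.77, 95% interval -5.33 to -0.21, adjusted p = 0.319), and DESeq2 called 0. The share of all genes at an unadjusted p on this scale is not given. The call of Atp2a3 on day 21 rested on replicate 2 of day 21, the library high in endothelial markers, without which it was 1.19 (adjusted p = 0.0727) in place of 2.36. Of the day 14 calls, that of Atp2a3 was lost without replicate 2 or 3 of day 14 (adjusted p = 0.0729 and 0.0671). Atp2b4 was lost without replicate 2, 3 or 4 of day 0 or replicate 2 or 3 of day 14 (adjusted p of 0.0502 to 0.129), and on day 21 without any 1 library of day 0 or replicate 1 or 2 of day 21 (0.0554 to 0.206).

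Kcnmb1 kept close to the structural genes on the later days. Taken per unit of the structural genes and with the day 0 mean as 1, its level was 1.58 ± 0.911 (SD, n = 4) on day 7, 0.999 ± 0.157 (n = 3) on day 14, 0.907 ± 0.26 (n = 4) on day 21 and 1.07 ± 0.168 (n = 3) on day 28. The log2 fold changes on this scale were 0.00 (95% interval -1.04 to 1.05), -0.13 (-1.10 to 0.84) and 0.10 (-0.94 to 1.13) on days 14, 21 and 28. None of these passed the test, and the intervals allow changes in either direction. Kcnma1 on this scale was 0.346 ± 0.176 (SD) for day 14, 0.597 ± 0.401 for day 21 and 0.137 ± 0.183 for day 28, and none of these differences passed the test.

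Across the 18 libraries, the Pearson correlation of log2 CPM was positive for 31 of the 45 pairs of the 10 genes and negative for 14. Pln and Ryr2 had the highest correlation of all pairs, at 0.81, and Atp2b1 and Atp2b4 had the lowest, at -0.67. Kcnma1 correlated at 0.64 with Cacna1c and at 0.11 with Atp2b4. These are descriptions over 18 libraries that share the time course and the cell mixture, and genes with few counts are correlated with less precision.

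The most similar other gene in the table was found by the same measure and is given for 9 of the 10 genes. For Kcnmb1 it was Tagln, an actin-binding protein of smooth muscle and 1 of the 12 structural genes, at 0.96. For Cacna1c it was the smooth muscle actin Actg2, at 0.83. For Atp2a2 it was Ccni, at 0.97, and for Atp2a3 it was Rasip1, a gene of endothelial cells, at 0.85. The others were Trio for Pln (0.87), Hps3 for Atp2b1 (0.80), Nudt12 for Ryr2 (0.92), Tmem47 for Itpr1 (0.83) and Tinagl1 for Kcnma1 (0.79). The genes most correlated with the mean of the 10 were Bcam, Tpm2, Tns1, Xirp1 and Ppp1r12a, at 0.93 to 0.95.

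**Figure D4:**
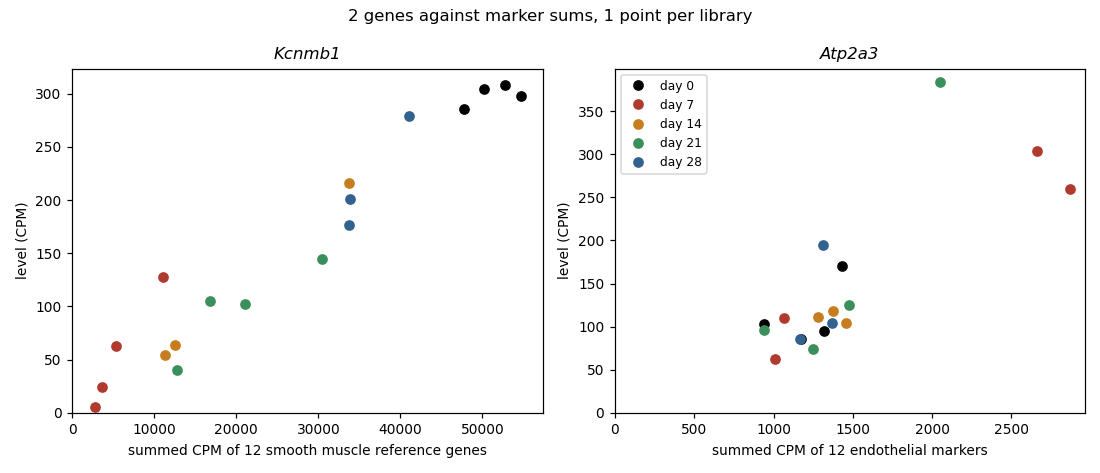
Level of Kcnmb1 against the summed CPM of 12 structural genes of smooth muscle (left) and of Atp2a3 against the summed CPM of 12 endothelial markers (right), 1 point per library, coloured by day. On the right, the 3 libraries highest in endothelial markers have Atp2a3 levels of 259 to 383 CPM, above the other 15.

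A list of 81 other genes of calcium and potassium handling in 8 roles was examined in the same fit, and 49 of them were tested. On day 7, 15 were lower and 4 were higher than on day 0, and 30 did not pass the test, against 8.55% lower and 11.3% higher among all genes tested, and the median difference was -0.65 on the log2 scale. On day 14, 2 were lower and 1 was higher (1.36% and 4.7% of all genes), on day 21, 4 were lower and 1 was higher (2.92% and 5.71% of all genes), and on day 28, 0 passed the edgeR test. In that comparison 7 genes with a negative and 2 with a positive difference had an unadjusted p under 0.05, and DESeq2 called 0. The share of all genes at an unadjusted p is not given here, so these counts cannot be set against it.

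Among the partners of calcium release, 3 of the 6 genes tested fell on day 7 and 1 rose (8.55% and 11.3% of all genes here and for the roles that follow). Jph2, which holds the reticulum close to the plasma membrane, was 292 ± 49.7 CPM (SD, n = 4) on day 0 and 29.6 ± 16.3 CPM (n = 4) on day 7. The log2 fold change of Jph2 was -3.28 ± 0.38 (SE; edgeR, adjusted p = 4.94e-07). Irag1, which couples cGMP-dependent kinase to the inositol trisphosphate receptor, fell by 2.54 ± 0.44 (edgeR, adjusted p = 0.000235), and was at -3.27 without replicate 4 of day 7. Itpr3, another inositol trisphosphate receptor, rose from 11.8 ± 4.99 to 63.3 ± 34.1 CPM (log2 fold change 2.41 ± 0.53; edgeR, adjusted p = 0.00147), whereas its family member Itpr1 fell.

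Of 10 potassium channel subunits tested, 4 fell and 1 rose on day 7, against 8.55% and 11.3% of all genes. Kcnab1, a beta subunit of voltage-gated potassium channels, fell by 4.04 ± 0.67 (edgeR, adjusted p = 0.000284), and without replicate 4 of day 7 its change was -5.11. Kcnn4, the intermediate-conductance calcium-activated potassium channel known from immune cells, endothelium and proliferating smooth muscle, was 0 to 13.1 CPM on day 0 and 53.9 to 89.0 CPM on day 7. Its libraries of the 2 days did not overlap, and the log2 fold change was 3.09 ± 0.62 (edgeR, adjusted p = 0.000567). The summed macrophage markers were higher in the same libraries, and their part in the rise of Kcnn4 and Itpr3 was not tested.

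Among calcium sensors and their kinases, 2 of 6 genes fell on day 7 and 0 rose. Mylk, the myosin light chain kinase that links calcium-calmodulin to contraction, was 1712 ± 275 CPM (SD, n = 4) on day 0 and 197 ± 71.5 CPM (n = 4) on day 7. Its log2 fold change was -3.12 ± 0.30 (SE; edgeR, adjusted p = 4.88e-08). Camk2g, a calmodulin-dependent kinase, fell by 1.10 ± 0.34 (edgeR, adjusted p = 0.0211), a call that was lost without replicate 1 of day 0 or replicate 2 or 3 of day 7 (adjusted p of 0.0619 to 0.0697).

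Of 7 genes for reticulum pumps, their inhibitors and lumenal buffers, 2 fell and 1 rose, against 8.55% and 11.3% of all genes. Tmem38b, a counter-ion channel of the reticulum, fell by 2.04 ± 0.44 and Casq1, a calcium-binding protein of the lumen, by 2.51 ± 0.80 (edgeR, adjusted p = 0.00114 and 0.025). Sri, the calcium-binding protein sorcin, rose by 0.94 ± 0.33 (edgeR, adjusted p = 0.0414), and the call of Sri was lost when any of 12 libraries was left out, among them every day 7 library and replicates 1, 3 and 4 of day 0 (adjusted p of 0.0502 to 0.113), and with the replicate block (adjusted p = 0.0606). The call of Casq1 was lost without replicate 2 or 3 of day 0 or replicate 1 or 4 of day 7 (adjusted p of 0.0521 to 0.0616). Sln, which encodes the SERCA inhibitor sarcolipin, had no count in any library.

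The reticulum calcium sensor Stim1 fell by 1.34 ± 0.38 and Saraf, a regulator of store-operated entry, by 0.88 ± 0.29 (edgeR, adjusted p = 0.0117 and 0.0324), 2 of 5 genes tested for that role. The call of Saraf was lost without replicate 4 of day 0 or replicate 1 or 3 of day 7 (adjusted p of 0.0541 to 0.0894). Of 6 other voltage-gated calcium channel subunits, Cacna2d1, which promotes the surface expression of the channel, fell by 1.73 ± 0.35 (edgeR, adjusted p = 0.000591) and the other 5 did not pass the test. The sodium-calcium-potassium exchanger Slc24a3 fell by 2.02 ± 0.52 (edgeR, adjusted p = 0.00551) and was at -3.36 without replicate 4 of day 7 (adjusted p = 2.33e-05). It was 1 of 2 genes tested among other plasma membrane pumps and exchangers. The mechanosensitive cation channel Piezo1 rose by 1.91 ± 0.41 (edgeR, adjusted p = 0.00119), from 28.3 to 65.6 CPM on day 0 to 103 to 215 CPM on day 7, and was 1 of 7 genes tested among other cation and chloride channels.

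**Figure D5:**
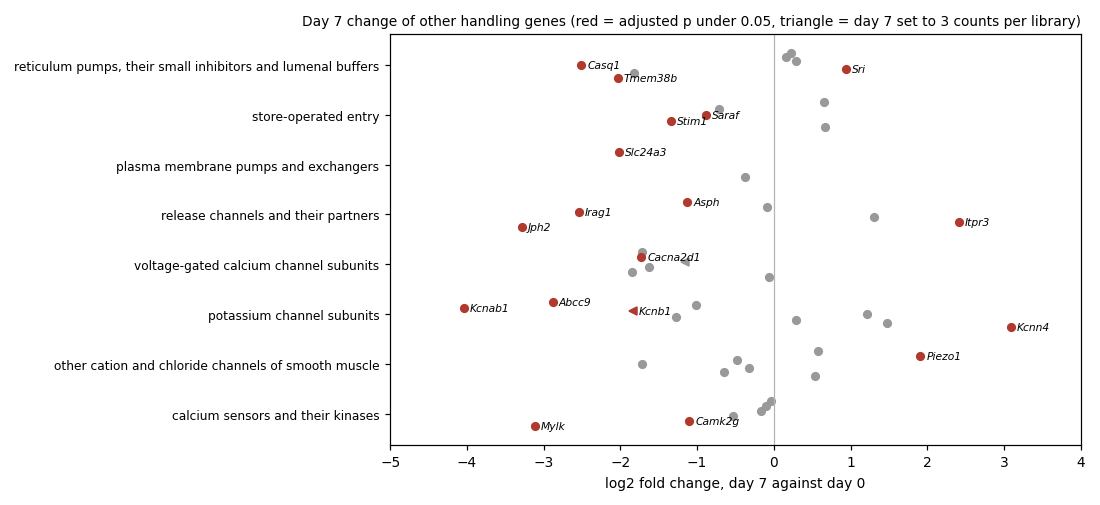
Log2 fold change on day 7 against day 0 for 48 of the 49 other calcium and potassium handling genes tested, by role, 1 point per gene. Red points passed the test (edgeR, adjusted p under 0.05) and carry the gene's symbol. Triangles mark 2 genes with at most 3 counts in every library of day 7, drawn with day 7 set to 3 counts per library. To the left of 0 are 14 red points and to the right 4 (Itpr3, Kcnn4, Piezo1 and Sri).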

How the data were processed

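Per the labels and the study's methods, reads were stripped of PCR copies by their molecular identifiers and quality-trimmed, and transcripts of mm39 were quantified with Salmon 1.9.0. The authors deposited estimated counts (expected counts) per gene, which are whole numbers and were the input of every main test, and a normalised signal made with DESeq2 1.36.0, used in 1 alternative. The annotation release and the use of strand are not given in the sources used here.

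All 18 libraries entered a single model in edgeR 4.0.16 under R 4.3.3 (filterByExpr by day, TMM, robust glmQLFit, glmQLFTest). P-values were adjusted by Benjamini-Hochberg across the 10312 genes kept, and 0.05 was the threshold. For the comparison relative to smooth muscle, library sizes were medians of ratios over 12 structural genes. CPM used TMM-scaled library sizes. Folds against a day with at most 3 counts in every library are bounds at that floor. Correlations used log2 CPM with a prior count of 2. DESeq2 1.42.0 and limma 3.58.1 were alternatives. The deposited signal entered limma as log2 of the signal plus 1. The fit with the mouse number as a random block used the estimated counts, by limma's voom after TMM. The steps were tested on simulated data.

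Named are the 10 members, per role the at most 3 called genes with the smallest p among 81 other handling genes, and the most similar genes, of which 2 genes are not reported here. The members and lists were chosen with earlier results of these data known. P-values measure the spread between these samples, each with 1 mouse number in the labels, which the paper calls pooled. The same mouse numbers occur on days 0 and 21 in 3 cases (correlation of deviations -0.007 to 0.055). The main tests, that of day 21 against day 0 among them, treat these libraries as independent. Replicate numbers carry no stated pairing (correlation of deviations -0.13 to 0.20 over 33 pairs). Replicate 3 of day 0 and replicate 3 of day 21 nevertheless have the same mouse number, and so do the replicates 4 of these days. Fits with the replicate block are given as alternatives only. Positions of genes are from GENCODE on GRCm39. The edgeR test gives no SE, so each SE was derived from the log2 fold change and the F statistic of its test. The 95% intervals were built from that SE and the t distribution, and are approximate. Both include the spread between libraries, and the floors cover counting error only.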

Additional observations from a re-analysis of the deposited data

Results flagged for a closer look

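Over 30 sets of 4 libraries (10 genes on days 0, 7 and 21), a single library stood apart by Dixon's criterion in 4. The limit is meant for about 1 in 20 sets of normally distributed values. The CPM values were not transformed, some rest on few counts, and the sets share libraries. The number found therefore cannot be set against that rate. Atp2a3 was 383 CPM in replicate 2 of day 21, against 74.5 to 125 CPM in the others. Ryr2 was 80.4 CPM in replicate 1 of day 0, against 21.0 to 26.3 CPM, and 17.8 CPM in replicate 4 of day 7, against 0 to 1.78 CPM. Cacna1c was 3.59 CPM in replicate 2 of day 7, against 11.3 to 12.5 CPM.

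The change from day 0 differed between day 7 and a later day for 4 genes, by the direct test of the 2 days. The differences in log2 fold change were 1.04 (day 14), 1.00 (day 21) and 1.39 (day 28) for Atp2a2, and 1.34 for Atp2b4 and 1.04 for Itpr1, both on day 28. Pln exceeded its day 7 level at least 3.08-fold on day 21 and at least 4.76-fold by day 28.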

How the results depend on the processing

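The falls of Atp2a2, Kcnmb1 and Pln on day 7 held under every alternative that gave them a value. With the deposited normalised values and limma, 4 of the 10 genes were lower on day 7 in place of 7, and the changes of Atp2b4 (0.55) and of Kcnma1 (0.36 on day 7 and 0.058 on day 21) were positive. On day 14 the number lower was 2 without the filter on low counts, with only the 2 days compared and with the mouse number as a random block, and 0 without the 2 libraries highest in skeletal muscle markers, a choice made after seeing the data. On day 21 it was 2 with DESeq2, without the filter, with the replicate block, with the mouse number as a fixed block and without the robust option (also chosen after seeing the data), and 3 with only the 2 days compared and with the random block. On day 28 it was 2 with DESeq2. Against day 7, 0 genes were higher on day 14 with only the 2 days compared, with the deposited values and with the random block, and 1 was higher on day 21 with only the 2 days compared. Relative to the structural genes on day 7, 8 genes were higher with Myh11 alone (share of all genes not given), and 1 (Pln) was lower with the replicate block and with summed counts. Ryr2 was at -0.70 with the replicate block and -0.16 with summed counts. On that scale 1 gene was higher on day 14 without the 2 libraries and 1 on day 28 with only the 2 days compared. The cause was not tested.

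Among all genes tested, the number called on day 28 was 331 with DESeq2, 363 without the filter, 44 with only the 2 days compared, 55 with the replicate block, 65 with the random block and 62 without the 2 libraries. Without these 2 it was 202 on day 14, 564 on day 21 and 481 for day 21 against day 7. For day 14 against day 7 it was 333 with DESeq2, 392 without the filter and 91 with only the 2 days compared, which gave 942 for day 28 against day 7. Relative to the structural genes it was 3138 on day 14 without the 2 libraries, and on day 28 it was 201 with DESeq2, 262 without the filter, 346 with only the 2 days compared and 58 with the replicate block.

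With each library left out in turn, the number of the 10 genes higher on day 7 was 0 to 1, the number lower was 0 to 2 on day 14, 1 to 2 on day 21 and 0 to 1 on day 28, and the number higher than on day 7 was 0 to 2 on day 14 and 1 to 4 on day 21. All genes called ranged from 233 to 733 on day 14, 590 to 1051 on day 21, 56 to 478 on day 28 and 30 to 303 for day 14 against day 7. Relative to the structural genes, 0 to 1 of the 10 were lower on day 7, 1 to 4 were higher on day 14 and 2 to 4 on day 21, fitted values of Ryr2 ranged from -2.12 (without replicate 4 of day 7, which leaves 1 count on that day and no measurable fold) to 0.71 on day 7, and all genes called ranged from 3487 to 7791 on day 14, 3713 to 6449 on day 21 and 52 to 168 on day 28. Pln, Ryr2 and Kcnma1 rest on few counts per library, and this depth limits their folds.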
